A study of Homo sapiens with 8 samples.

Results

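Solute carriers are membrane proteins that move ions, sugars, amino acids, nucleosides, vitamins and drugs across the membranes of a cell, most of them by coupling to a gradient or by exchanging one molecule for another. Families are numbered by sequence and by substrate, and the organic anion transporting polypeptides carry the prefix SLCO. Several members bring anticancer drugs into cells, among them organic cation transporters for platinum compounds, nucleoside carriers for nucleoside analogs and the reduced folate carrier for antifolates. The genes described here are all those of the screened library whose symbol starts with SLC and a number, or with SLCO, apart from the SLC6 neurotransmitter and amino acid transporters. They came to 64 genes of 1420 and to 448 sgRNAs of 9929 that targeted a gene, in a library that also held 500 control sgRNAs. All 64 genes had 7 sgRNAs, and they belonged to 21 families, of which SLC22 held 18 genes, SLCO held 11, and 8 families had a single member.

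The screen asked which gene knockouts change the level of PRMT5, the main symmetric arginine methyltransferase, in COV362 cells, an established line of high-grade serous ovarian cancer that had been made platinum resistant. Both populations carried Cas9 and the same pool of sgRNAs, had the genotype labelled WT, and were separated by their PRMT5 staining: PRMT5lo cells were sorted for the least PRMT5 and PRMT5hi cells for the most, with 4 libraries each. An sgRNA with a larger share of the reads in PRMT5lo cells marks a knockout found more often in cells with little PRMT5, and a larger share in PRMT5hi cells marks the opposite. The replicates were split after a single transduction. The p-values of the sgRNA tests, also when combined per gene, thus take in no more than the variation among cultures of 1 transduced pool. Whether the sgRNAs disrupted these carriers, and which of the carriers the cells express, was not measured in the data used here.

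Each population has 1 value per sgRNA, the authors' mean over its 4 libraries in counts per 1000000 reads (CPM), so libraries cannot be shown one by one. Depth, recovered from the smallest variances as a total over 4 libraries, averaged 4779349 reads per PRMT5lo library and 4041715 per PRMT5hi library. An sgRNA against a solute carrier gene had a median of 1606 reads summed over the PRMT5lo libraries and 1355 over the PRMT5hi libraries, with a minimum of 134 in PRMT5lo and 158 in PRMT5hi. Reads were PCR products without molecular identifiers, so depth stands for counting error only. The ratio used throughout is log2 of CPM + 1 in PRMT5lo over CPM + 1 in PRMT5hi, positive where the sgRNA was more abundant in PRMT5lo cells. Which set of columns belongs to which population was read from the sign convention of the study's figure legend, since the labels do not name the columns, and with the opposite assignment every ratio would change sign. A gene's value is the mean of this ratio over its 7 sgRNAs, given with the SD over them. The sgRNAs of a gene share a target and are not replicates of a condition.

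None of the 64 genes was called in either direction, where a call needs Fisher's combination of the sgRNA tests to give a one-sided p below 0.01 and the mean log2 ratio to pass 0.25, a fold of 1.19. Across all 1420 genes, 10 (0.704%) were called toward PRMT5lo and 12 (0.845%) toward PRMT5hi. No mean of a solute carrier gene passed 0.25 on either side, against 65 (4.58%) of all genes. The means ran from -0.18 to 0.20, with a median of -0.019 and an SD between genes of 0.094, against a range of -0.62 to 0.54, a median of -0.0033 and an SD of 0.12 over all genes. There were 28 means above 0 (43.8%) and 36 below, where 689 of all 1420 genes had a mean above 0. Of the 448 sgRNAs, 233 (52%) had a ratio above 0. For all 64 genes the SD over the 7 sgRNAs exceeded the size of the mean, a count not made over the library. The median of these SDs was 0.258, against 0.259 over all genes.

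At an unadjusted one-sided p under 0.05 by Fisher's combination, 5 genes (7.81%) leaned toward PRMT5lo, where 122 (8.59%) of all genes did, and 3 (4.69%) toward PRMT5hi, where 132 (9.3%) did. The share toward PRMT5lo was near that of all genes and the share toward PRMT5hi was lower, and these differences were not tested. With limma on the sgRNA ratios, 5 genes (7.81%) had a one-sided p under 0.05 toward PRMT5lo, where 83 (5.85%) of all genes did, and 0 toward PRMT5hi, where 88 (6.2%) did. After Benjamini-Hochberg adjustment over all genes, 0 members passed 0.05 by Fisher's combination, against 2 (0.141%) and 3 (0.211%) of all genes toward PRMT5lo and PRMT5hi, and 0 passed by limma, against 1 (0.0704%) of all genes in each direction. The smallest adjusted p of a member was 0.322 toward PRMT5lo and 0.473 toward PRMT5hi by Fisher's combination, and 0.774 by limma.

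The precision of these means sets what can be said of them. The limma intervals and p-values measure the spread of the pooled ratios over the sgRNAs of a gene, not the variation among libraries. The 95% limma interval included 0 for all 64 genes, and for 14 (21.9%) it lay wholly within 0.25 on both sides, against 400 (28.2%) of all genes. For 23 genes it reached past 0.25 and for 27 past -0.25, so a difference of the size used for a call was not excluded for most members. At least 6 of the 7 sgRNAs lay on the same side of 0 for 7 genes (10.9%; 5 toward PRMT5lo, 2 toward PRMT5hi), against 191 (13.5%) of all genes. Only SLC22A14 among the 64 had 7 of 7 on one side, as did 30 (2.11%) of all genes.

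The organic cation and carnitine carriers of the SLC22 family are the members closest to platinum uptake. SLC22A2 and SLC22A3 encode organic cation transporters and lie close together on chromosome 6 (160216755 to 160452577, GRCh38), and SLC47A1 and SLC47A2 (chromosome 17, 19533854 to 19718979) encode the extrusion pumps that export the same kind of substrate. SLC22A2, the kidney transporter known for carrying cisplatin, had a mean of 0.19 ± 0.26 (SD, 7 sgRNAs; 95% interval -0.02 to 0.40). Its sgRNAs 1 to 7 had 97.1, 230, 82.0, 72.6, 73.6, 171 and 60.1 CPM in PRMT5lo cells, against 108, 184, 71.8, 55.3, 50.0, 156 and 65.1 CPM in PRMT5hi cells. In 5 of 7 the PRMT5lo value was the higher, and the interval included 0 (Fisher p = 0.0608 toward PRMT5lo, adjusted 0.630).

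The other carriers of platinum compounds lay nearer 0. SLC22A3, a more widely expressed transporter, had a mean of -0.03 ± 0.24. Combined sgRNA tests gave SLC22A3 a p of 0.0326 toward PRMT5hi (adjusted 0.473), although only 4 of its 7 sgRNAs were higher in PRMT5hi cells. That p rested on SLC22A3 sgRNA 2, at 156 CPM in PRMT5lo and 182 CPM in PRMT5hi cells, and was 0.536 without it. Of the extrusion pumps, SLC47A1 stood at -0.01 ± 0.23 and SLC47A2 at 0.13 ± 0.18, SLC47A2 with 6 of 7 sgRNAs higher in PRMT5lo cells. Over all 5 carriers of platinum drugs in the library the median of the means was -0.015.

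SLC22A16, a carnitine carrier that also takes up doxorubicin, had the highest mean of all 64 genes, 0.20 ± 0.27 (95% interval -0.01 to 0.41). Its sgRNAs 1 to 7 had 133, 94.9, 113, 83.3, 58.8, 71.0 and 52.0 CPM in PRMT5lo cells, against 118, 81.6, 135, 81.7, 39.5, 50.3 and 45.3 CPM in PRMT5hi cells. All but sgRNA 3 were higher in PRMT5lo cells, by at most 0.56 on the log2 scale for sgRNA 5, and no single sgRNA passed the limits. The combined p was 0.0896 (adjusted 0.723) and the limma adjusted p 0.774. SLC22A4 and SLC22A5, the ergothioneine and carnitine transporters that adjoin each other on chromosome 5, had means of 0.08 and 0.0091. Over the 6 cation and carnitine carriers the median was 0.045, with 4 means above 0.

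The organic anion carriers of the SLC22 family take up urate, drugs and metabolites, mainly in kidney and liver. Their 8 means had a median of 0.018 and ran from -0.05 to 0.18, with 5 above 0. SLC22A12, the urate exchanger of the kidney, was the highest at 0.18 ± 0.30 and also the least abundant gene of the 64. Its 7 sgRNAs had 12.6, 19.0, 68.7, 73.2, 14.6, 34.7 and 64.3 CPM in PRMT5lo cells, against 15.1, 14.4, 55.6, 50.9, 11.0, 40.9 and 56.3 CPM in PRMT5hi cells. The PRMT5lo value was the higher in 5 of them, and the combined p was 0.223.

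SLC22A6, a kidney uptake carrier chosen for mention after its values were seen, had a mean of 0.09 ± 0.29 with a combined p of 0.0389 toward PRMT5lo (adjusted 0.520). Without its sgRNA 7 that p was 0.526. SLC22A6 shares a stretch of chromosome 11 (62976597 to 63410294) with SLC22A8, SLC22A10 and SLC22A9, whose means were 0.0034, -0.0086 and -0.05. These neighbours thus showed no common direction. Among the remaining SLC22 genes, SLC22A14 on chromosome 3 (38278832 to 38318575) had the lowest mean of the family, -0.14 ± 0.17.

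All 7 sgRNAs against SLC22A14 had a ratio below 0. Their CPM were 73.7, 186, 154, 47.5, 150, 148 and 117 in PRMT5lo cells, against 79.3, 190, 177, 49.3, 210, 148 and 126 in PRMT5hi cells. The ratios ran from -0.48 for sgRNA 5 to -0.01, and no single sgRNA passed the limits. The combined p was 0.125 toward PRMT5hi (adjusted 0.709), the 95% interval was -0.33 to 0.05, and the limma adjusted p was 0.885. SLC22A13, which lies directly beside it (38265812 to 38278757) and carries urate and nicotinate, had a mean of 0.10, on the other side of 0.

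The 11 SLCO genes encode carriers of bile acids, hormones, prostaglandins and drugs. Their means had a median of -0.031 and ran from -0.10 to 0.19, with 4 above 0. SLCO5A1, which has no well-defined substrate, was the highest at 0.19 ± 0.24 (95% interval -0.02 to 0.39). Its sgRNAs 1 to 7 had 123, 114, 84.9, 157, 83.1, 68.8 and 100.4 CPM in PRMT5lo cells, against 106, 88.2, 73.6, 150.4, 56.0, 64.3 and 114 CPM in PRMT5hi cells. In 6 of 7 the PRMT5lo value was the higher, and the combined p of 0.0409 (adjusted 0.528) became 0.276 without sgRNA 3. SLCO2B1, a carrier of steroid sulfates, was the lowest at -0.10 ± 0.37, with 4 of 7 sgRNAs higher in PRMT5lo cells all the same.

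The liver carriers SLCO1B1 and SLCO1B3 lie with SLCO1C1 and SLCO1A2 in 1 cluster on chromosome 12 (20695332 to 21419634). SLCO1B3, the second most abundant gene of the 64, had a mean of -0.04 ± 0.35. Its sgRNAs disagreed: sgRNA 7 had 209 CPM in PRMT5lo and 293 CPM in PRMT5hi cells, while sgRNA 6 had 157 CPM in PRMT5lo and 126 CPM in PRMT5hi cells. The 4 means of the cluster ran from -0.04 to 0.10.

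Nucleoside carriers admit nucleosides and analogs such as gemcitabine, the SLC28 proteins against a gradient and the SLC29 proteins along it. SLC29A1, the main equilibrative carrier (chromosome 6, 44219615 to 44234142), had the lowest mean of all 64 genes, -0.18 ± 0.37 (95% interval -0.42 to 0.06). Its sgRNAs 1 to 7 had 34.9, 79.7, 51.6, 31.6, 149, 49.7 and 190 CPM in PRMT5lo cells, against 29.3, 61.3, 65.1, 38.9, 162, 79.6 and 262 CPM in PRMT5hi cells. The first pair of sgRNAs was higher in PRMT5lo cells and the other 5 were higher in PRMT5hi cells. Fisher's combination gave p = 0.0379 toward PRMT5hi (adjusted 0.488), which was 0.375 without sgRNA 7. The limma adjusted p was 0.885.

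SLC29A2, the other equilibrative carrier, had a mean of 0.17 ± 0.22 with 5 of 7 sgRNAs higher in PRMT5lo cells, on the opposite side of 0 from SLC29A1. The concentrative carriers SLC28A1, SLC28A2 and SLC28A3 had means of -0.04, -0.05 and -0.01, all below 0. SLC28A2, which prefers purine nucleosides, had a combined p of 0.0461 toward PRMT5hi (adjusted 0.518), yet 5 of its 7 sgRNAs were higher in PRMT5lo cells. That p came from sgRNA 5, with 38.0 CPM in PRMT5lo and 51.7 CPM in PRMT5hi cells, and was 0.728 without it. The reduced folate carrier SLC19A1, the route of methotrexate, had a mean of -0.10 ± 0.26 with 2 of 7 sgRNAs higher in PRMT5lo cells.

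Amino acid, peptide and sugar carriers gave means on both sides of 0. SLC7A5 and SLC7A8, the large neutral amino acid exchangers, had means of 0.10 ± 0.23 and -0.15 ± 0.23. For SLC7A8 the 7 sgRNAs had 88.2, 50.9, 129.8, 47.5, 56.9, 50.3 and 169.8 CPM in PRMT5lo cells, against 83.9, 53.9, 169.6, 47.2, 83.7, 49.4 and 184 CPM in PRMT5hi cells. Its low mean came mostly from sgRNAs 3 and 5, and the combined p was 0.161 toward PRMT5hi. SLC7A7, the cationic amino acid exchanger, named after its values were seen, had a mean of 0.10 ± 0.22 and a p of 0.0362 toward PRMT5lo (adjusted 0.514), or 0.253 without sgRNA 2. SLC1A1, a glutamate and cysteine transporter, stood at 0.04 ± 0.36.

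The peptide carrier SLC15A1 was the most abundant gene of the 64 and had a mean of -0.05 ± 0.19. Among the sodium-coupled SLC5 carriers, SLC5A4 was the highest at 0.13 ± 0.34 and SLC5A1, which absorbs glucose in the gut, the lowest at -0.09 ± 0.33. These lie next to each other on chromosome 22 (32043261 to 32355063). The facilitative sugar carriers SLC2A4 and SLC2A5, for glucose and fructose, both had means above 0, at 0.04 and 0.15.

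SLC9A3, the sodium-proton exchanger of kidney and gut, had a mean of -0.03 ± 0.24. Both SLC12 genes, the kidney salt cotransporters targeted by diuretics, were below 0, with SLC12A1 at -0.11 ± 0.24 and SLC12A3 at -0.07 ± 0.24. The 3 SLC13 genes, for sulfate and dicarboxylates, were likewise below 0, with SLC13A1 at -0.0079 ± 0.19, SLC13A2 at -0.11 ± 0.22 and SLC13A3 at -0.04 ± 0.34. SLC13A3, named after its values were seen, had the lowest combined p of all members toward PRMT5lo, 0.0111 (adjusted 0.322), despite that mean. Only 2 of its 7 sgRNAs were higher in PRMT5lo cells, and without sgRNA 7 the p was 0.765 and the mean -0.13.

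The phosphate carrier SLC34A2, a surface antigen of many ovarian cancers, had a mean of 0.02 ± 0.36. SLC40A1, or ferroportin, the exporter of iron, had -0.07 ± 0.33. The bile acid carriers SLC10A1 of liver and SLC10A2 of gut had 0.07 and -0.07.

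The remaining families held a single gene each. SLC16A1, a lactate carrier, had a mean of 0.01 ± 0.22. SLC18A2, the vesicular monoamine carrier, had -0.05 ± 0.29, and SLC44A4, a choline-like transporter, had -0.05 ± 0.30. SLC27A1, a fatty acid carrier, was the lowest of the families with 1 member at -0.12 ± 0.26, with 2 of 7 sgRNAs higher in PRMT5lo cells. None of these was called.

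Single sgRNAs differed more than gene means did. Of the 448, 7 (1.56%) were called toward PRMT5lo, by a one-sided p below 0.01 with a log2 ratio past 0.25, and 6 (1.34%) toward PRMT5hi, where 130 (1.31%) of the 9929 sgRNAs against genes were called in each direction. After adjustment over all 10429 sgRNAs, controls included, 0 members passed 0.05 in either direction, against 4 (0.0384%) of these 10429 toward PRMT5lo and 0 (0%) toward PRMT5hi. At an unadjusted p under 0.01 alone there were 10 members (2.23%) toward PRMT5lo, where 167 (1.68%) of sgRNAs against genes were, and 7 (1.56%) toward PRMT5hi, where 163 (1.64%) were. The 13 called sgRNAs fell in 12 genes, so no gene had more than 1 in the same direction.

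All called sgRNAs are named here after their values were seen. The largest ratio belonged to sgRNA 4 against SLC22A7, an organic anion carrier of liver, with 93.1 CPM in PRMT5lo and 54.8 CPM in PRMT5hi cells (log2 0.75 ± 0.17, SE). The other 6 sgRNAs of SLC22A7 had ratios as low as -0.45, and the gene's mean was -0.02. Among the 448 sgRNAs the lowest p belonged to sgRNA 7 against SLC13A3, which had 134.8 CPM in PRMT5lo and 96.9 CPM in PRMT5hi cells (log2 0.47 ± 0.047, SE). Its p was 3.45e-05, or 0.0600 after adjustment. Its variance was at the smallest value the method allows in both populations. The others toward PRMT5lo were sgRNA 5 of the prostaglandin carrier SLCO2A1 (74.5 and 52.4 CPM in PRMT5lo and PRMT5hi cells), sgRNA 7 of SLC22A6, sgRNA 7 of SLCO1A2, sgRNA 4 of SLC9A3 and sgRNA 2 of SLCO3A1, with log2 ratios from 0.35 to 0.50.

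Toward PRMT5hi, sgRNA 2 of SLC22A17, a lipocalin receptor, had 50.6 CPM in PRMT5lo and 80.7 CPM in PRMT5hi cells, and sgRNA 7 of SLC40A1 had 43.8 CPM in PRMT5lo and 69.6 CPM in PRMT5hi cells, both at a log2 ratio of -0.66. The remaining sgRNAs, numbers 3 of SLCO1A2, 7 of SLC29A1, 5 of SLC28A2 and 4 of SLC2A4, had ratios from -0.51 to -0.34. SLCO1A2, a carrier at the blood-brain barrier, thus had 1 called sgRNA in each direction: sgRNA 7 had 169 CPM in PRMT5lo and 129 CPM in PRMT5hi cells, and sgRNA 3 had 127 CPM in PRMT5lo and 181 CPM in PRMT5hi cells. Its gene mean was -0.02 ± 0.32. Each of these genes had other sgRNAs on the opposite side of 0.

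The sgRNA test divides a difference by its standard error, so a given difference yields a smaller p-value where the variance is smaller. Of the 448 sgRNAs, 133 (29.7%) were at the smallest variance in at least 1 population, and of the 17 with an unadjusted p under 0.01, 12 were. Among called sgRNAs these made up 5 of the 7 toward PRMT5lo and 3 of the 6 toward PRMT5hi. By population, 81 (18.1%) of the 448 were at the smallest variance in PRMT5lo and 65 (14.5%) in PRMT5hi. Over all 10429 sgRNAs these counts were 1837 and 1258. How much the small variances added to the calls was not tested. The spread of the ratios depended on abundance: over the scarcest of 3 equal groups of sgRNAs, log2 ratios had an SD of 0.33 and a median SE of 0.33, over the middle group 0.27 and 0.24, and over the most abundant 0.22 and 0.17. These groups held 6, 3 and 4 of the called sgRNAs.

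The abundance of an sgRNA after culture also records whether cells lost it, irrespective of PRMT5. A gene's abundance, a level and not a ratio, averages log2(CPM + 1) across its 7 sgRNAs and across PRMT5lo and PRMT5hi. Its median was 6.36 over the 64 genes, against 6.39 over all genes, and 6.87 was the mean over control sgRNAs. Only SLC22A12 (4.99) lay among the lowest 5% of library genes, 1 of 64 (1.56%) against the 5% that the limit itself sets, so the members were not concentrated among the scarce genes. Next came SLC29A2 at 5.48 and SLC18A2 at 5.54, and the highest were SLC15A1 and SLCO1B3, both at 7.23.

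The mean CPM of these genes shows how evenly the populations held them. SLC22A12 averaged 41.0 CPM in PRMT5lo and 34.9 CPM in PRMT5hi cells, and SLC15A1 averaged 159 CPM in PRMT5lo and 166 CPM in PRMT5hi cells. The scarcest sgRNA of all, number 7 against SLC18A2, had 7.06 CPM in PRMT5lo and 9.76 CPM in PRMT5hi cells, while sgRNA 4 of the same gene had 92.3 CPM in PRMT5lo and 106 CPM in PRMT5hi cells. Over the 448 sgRNAs the median was 84.4 CPM in PRMT5lo and 83.8 CPM in PRMT5hi cells, and log2 abundances of the populations correlated at r = 0.947 across sgRNAs, which share libraries and are not independent. There were 13 sgRNAs (2.9%) under 20 CPM, against 336 (3.38%) of all sgRNAs against genes. The starting library was not used here, so loss during culture and an uneven library cannot be told apart.

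Genes that work with these carriers, also chosen with earlier results known, were not called by Fisher's combination. BSG, the chaperone that takes SLC16A1 to the membrane, had a mean of 0.11 with 5 of 7 sgRNAs higher in PRMT5lo cells. HAMP, or hepcidin, the hormone that removes ferroportin, had -0.14 with 1 of 7. TFRC, the transferrin receptor that brings iron in, had -0.37 ± 0.53 and a combined p of 0.0334 toward PRMT5hi (adjusted 0.473), with 2 of 7 sgRNAs higher in PRMT5lo cells. By limma its 95% interval was -0.65 to -0.09, which leaves out 0, and its one-sided p of 0.0065 met the limits for a call, though not after adjustment over all genes (0.504). TFRC was also scarce, at 44.2 CPM in PRMT5lo and 48.9 CPM in PRMT5hi cells, and lay within the lowest 5% of abundance. The exporter SLC40A1 stood at -0.07. FOLR1, the folate receptor, had 0.15.

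Other membrane transporters of the library were set beside the 64 genes. The 22 ATP-binding cassette transporters, which export drugs, had means from -0.24 to 0.15 with a median of -0.015 and 0 called genes. The 6 SLC6 genes had means from -0.36 to 0.03 with a median of -0.055 and 2 genes called toward PRMT5hi. The SD of single ratios was 0.28 over the 448 solute carrier sgRNAs, 0.32 over ABC sgRNAs, 0.37 over SLC6 sgRNAs and 0.25 over the 500 control sgRNAs. These differences between groups of genes were not tested. Control sgRNAs had a median ratio of 0.011.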

How the data were processed

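Genomic DNA of sorted cells was sequenced for sgRNAs in 4 PRMT5lo and 4 PRMT5hi libraries. Following the methods, the authors used the CB2 package to map reads to the library's sgRNA sequences, count them and compare populations. FastQC and hg38 are named in the submitters' processing notes. Versions of these tools were not given in the sources read. The deposited CPM are the authors' means over the 4 libraries of a population. The authors also deposited, per population, the estimated fraction of reads that an sgRNA takes, with its variance and number of libraries. The deposited columns of fold changes, scores and p-values hold the authors' comparison and were not used. Columns of other samples numbered 0. The labels do not name the 2 column groups. The lower-PRMT5 side was taken from the sign convention of the study's figure legend, whereas the study's methods give the opposite sign. If the assignment were the other way round, each ratio would change sign.

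The difference in fraction over its standard error was tested per sgRNA by a one-sided t distribution with the CB2 degrees of freedom, and p-values were combined per gene by Fisher's method. Ratios used a pseudocount of 1 CPM. limma 3.58.1 (R 4.3.3) was fitted to the sgRNA ratios of all 1420 genes, and gave the 95% intervals and the two-sided adjusted p. Python 3.11.15, numpy 2.4.6, scipy 1.17.1 and pandas 2.3.3 did the rest. P-values were adjusted by Benjamini-Hochberg over all genes or all 10429 sgRNAs. The code was tested on simulated data. At the recovered depth, 100% of read totals at the smallest variance came out whole within 0.05 reads.

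Genes named were the called genes, the 5 highest and 5 lowest means, 5 carriers of platinum drugs, the 3 least and 2 most abundant genes, the highest and lowest of families with 3 or more members, single members of families, and sgRNAs past an adjusted p of 0.05, 32 genes in all. A few genes that meet the rule are left out of the text. Members and lists were chosen with earlier results of these data known. Symbols of 63 of the 64 genes were matched in RefSeq (GRCh38.p14), which gave the coordinates. Spacer sequences were not used here, and cutting at related genes was not checked. Alternatives were pseudocounts of 5 and 10, sgRNAs of at least 20 CPM in genes with at least 3 left, centring on control sgRNAs, the median over sgRNAs, Stouffer's method, limma, adjusted p limits and leaving out each sgRNA.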

Additional observations from a re-analysis of the deposited data

How the results depend on the processing

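No solute carrier gene was called in either direction under any alternative run, including each omission of an sgRNA. The counts of called sgRNAs, 7 toward PRMT5lo and 6 toward PRMT5hi, were the same with pseudocounts of 5 and 10, a minimum of 20 CPM and centring on control sgRNAs, and were 0 and 0 at an adjusted p under 0.05. The median of the gene means was between -0.030 and -0.013 under these settings and 0.0082 with the median over sgRNAs. The count in the lowest 5% of abundance stayed at 1. Of the 32 named genes, those near 0 changed sign. With the median over sgRNAs these were SLC13A1 (0.11), SLC1A1 (-0.10), SLC28A2 (0.024), SLC40A1 (0.014), SLC47A1 (0.052), SLC5A4 (-0.050), SLCO1B3 (0.073) and SLCO2B1 (0.030). With a minimum of 20 CPM they were SLC16A1 (-0.012), SLC18A2 (0.014) and SLC34A2 (-0.023). Leaving out 1 sgRNA turned SLC13A1 (0.040), SLC16A1 (-0.036), SLC18A2 (0.014), SLC1A1 (-0.040), SLC22A3 (0.034), SLC28A2 (0.0097), SLC28A3 (0.040), SLC34A2 (-0.023), SLC40A1 (0.026), SLC44A4 (0.0080), SLC47A1 (0.046) and SLCO1B3 (0.031). Signs of named genes held under the other settings, and the causes of the changes were not tested. Over all genes, the calls toward PRMT5lo ran from 0 to 16 and toward PRMT5hi from 3 to 28, with limma giving the most and an adjusted p under 0.05 together with the limit on the mean the fewest. No paired analysis was possible because the deposited values are pooled over the 4 libraries of a population and carry no replicate numbers, and for the same reason no library could be left out. Log2 ratios spread most over the scarcest sgRNAs, and the part of depth in this was not tested.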
